A study of Mus musculus with 31 samples.

Results

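The vascular endothelial growth factor (VEGF) family was followed in the uterus of ovariectomised mice 6 h after 17β-estradiol (E2) or placebo. It comprised 10 genes, picked by the gene name that the array design gives to each probe. They were the 5 ligands Vegfa, Pgf, Vegfb, Vegfc and Figf (now named Vegfd), the 3 receptor tyrosine kinases Flt1, Kdr and Flt4, and the 2 neuropilins Nrp1 and Nrp2. They were measured by 15 of the 55681 probes on each array and made up 10 of the 27056 genes tested. Total RNA of the uterus was hybridised in 1 colour to 31 Agilent arrays, 1 per sample, in 8 groups.

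In the MISS line, on C57BL6/N, the groups were MISS KO E2, MISS KO placebo, MISS WT E2 and MISS WT placebo, with 4 arrays each. In the AF2 line, on C57BL6/J, they were AF2 KO E2 with 3 arrays and AF2 KO placebo, AF2 WT E2 and AF2 WT placebo with 4 each. All groups share an ovariectomy at 4 weeks of age, 3 weeks of rest on normal chow and a subcutaneous injection in castor oil, which carried 8 µg/kg of E2 or 0 µg/kg (placebo). From knowledge outside the labels, both animals labelled KO still make estrogen receptor α (ERα, gene Esr1): the AF2 mutant lacks activation function 2, which recruits coactivators when hormone binds, and the MISS mutant cannot be anchored in the cell membrane. Each line is set against its own WT, and line and background strain cannot be told apart between lines. Sample names carry numbers, of which 1 is shared by a MISS KO placebo and an AF2 WT placebo sample that differ by a letter, and nothing states that each sample is a separate animal, so p-values measure the spread between these samples.

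VEGF-A, made mostly by stromal and epithelial cells, drives the growth and leakiness of blood vessels through the endothelial receptor KDR (VEGF receptor 2). FLT1 (VEGF receptor 1) binds VEGF-A tightly with weak signalling, also exists as a secreted form that traps ligand, and is the receptor of placental growth factor (Pgf) and VEGF-B. VEGF-C and VEGF-D act through FLT4 (VEGF receptor 3), the receptor of lymphatic vessels, and neuropilins serve as coreceptors for VEGFs and for class 3 semaphorins. In the rodent uterus, estrogen is known to raise vascular permeability and to cause oedema within hours.

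The RefSeq promoter table (GRCm38.p6) held all 10 genes. The promoters of Vegfa, Pgf, Vegfc and Figf follow because these genes had the largest responses of the family in MISS KO and AF2 WT uteri, Vegfa and Pgf upward and Vegfc and Figf downward. Each is the 250 bases before the most upstream start in that table, on the strand of the gene, 5′ to 3′, with the GC box (GGGCGG or its complement CCGCCC), which binds Sp factors, in capitals.
Vegfa: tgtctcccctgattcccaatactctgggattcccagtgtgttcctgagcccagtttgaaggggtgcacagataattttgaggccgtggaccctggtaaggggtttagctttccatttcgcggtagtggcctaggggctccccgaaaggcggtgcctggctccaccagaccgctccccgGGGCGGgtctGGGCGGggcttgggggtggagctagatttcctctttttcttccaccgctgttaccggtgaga
Pgf: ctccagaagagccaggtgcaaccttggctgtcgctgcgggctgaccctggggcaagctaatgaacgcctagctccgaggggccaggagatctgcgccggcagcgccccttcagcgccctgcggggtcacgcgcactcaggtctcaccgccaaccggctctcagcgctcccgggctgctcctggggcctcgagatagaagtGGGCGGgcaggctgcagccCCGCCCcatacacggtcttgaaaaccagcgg
Vegfc: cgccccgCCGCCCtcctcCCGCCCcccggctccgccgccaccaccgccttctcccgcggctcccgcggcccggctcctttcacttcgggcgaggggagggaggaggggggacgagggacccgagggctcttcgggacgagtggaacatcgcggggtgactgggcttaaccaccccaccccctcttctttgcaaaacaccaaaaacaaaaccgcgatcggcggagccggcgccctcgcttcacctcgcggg
Figf: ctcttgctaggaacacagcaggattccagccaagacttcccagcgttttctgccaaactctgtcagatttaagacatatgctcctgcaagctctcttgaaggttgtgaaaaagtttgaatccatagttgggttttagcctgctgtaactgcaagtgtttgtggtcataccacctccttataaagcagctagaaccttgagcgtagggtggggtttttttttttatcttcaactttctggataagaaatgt
These windows lie at chr17:46032378-46032627 (minus strand), chr12:85177314-85177563 (minus strand), chr8:54077282-54077531 (plus strand) and chrX:164373272-164373521 (plus strand).

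Vegfa, Pgf and Vegfc each held 2 GC boxes and Figf held 0, while 32.7% of all 32851 promoters of the table held at least 1. G and C made up 59.2%, 68.4%, 71.6% and 42.4% of the bases of Vegfa, Pgf, Vegfc and Figf, against a median of 52.4% over all promoters. The core of the hypoxia response element (ACGTG, both strands) was found in 0 of these 4 windows and in 16.6% of all promoters. The estrogen receptor motif AGGTCA, searched on both strands, was found in 0 of the 4 and in 14% of all, and the full palindromic estrogen response element in 0 of the 4 and in 0.0639% of all. Over all 10 members, the GC box was found in 9 windows, ACGTG and the full palindrome in 0, and AGGTCA in 2, those of Vegfb and Nrp1. GC boxes were thus shared by genes that moved in opposite directions, and the missing motifs say only that these letters are not in these windows.

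The Nrp1 probe is printed because the reading of Nrp1 turns on it. The array files give it 5′ to 3′ on the strand of the gene, with positions in mm9.
Nrp1 probe: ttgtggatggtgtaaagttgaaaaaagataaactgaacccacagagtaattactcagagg
The Nrp1 probe lies at chr8:131026650-131026709 (plus strand). This and the other probes are located by their coordinates only, since no mm9 gene annotation was used here to place them in exons or UTRs.

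All 15 probes were well above background on all 31 arrays, and 0 spots were saturated. The 75th percentile of the processed signal ran from 475 to 918 intensity units per array, and 61.7 to 77.1% of probes were well above background. All levels below are log2 values relative to that percentile, for the probe with the highest mean level of each gene, and changes are log2 differences ± the standard error (SE) of the limma fit, with Benjamini-Hochberg adjusted p over all genes tested. A gene was called at an adjusted p under 0.05. The number of arrays limits the precision. Markers of uterine epithelium (8 of 8), stroma (8 of 8) and smooth muscle (6 of 6) passed the filter on dim probes, and 5 of 6 markers of ovary and oviduct did too, with a summed level of 0.75 to 1.91. The summed level of 5 adipocyte markers was uneven between arrays of a group, from -0.02 to 5.82 in MISS KO with E2 and from -0.20 to 3.96 in AF2 WT with E2. Samples thus differed in fat content by these markers, and its part in the results below was not tested. The Esr1 probe read 2.72 to 3.65 over all arrays. It does not show which form of the receptor a sample makes.

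E2 changed 9 of the 10 genes in MISS KO, in MISS WT and in AF2 WT uteri, and called 0 of 10 in AF2 KO uteri. In each of the 3 responding genotypes, 6 genes rose (Vegfa, Pgf, Flt1, Kdr, Nrp1 and Nrp2), 3 fell (Vegfb, Vegfc and Figf), and Flt4 was not called. Most genes moved in these uteri, so the share of members called has to be read against 57.3% of all 27056 genes tested in MISS KO (30.1% higher and 27.2% lower), 62.2% in MISS WT (35.1% higher and 27.1% lower) and 57.6% in AF2 WT (27.6% higher and 30.1% lower). In AF2 KO, 3.68% of all genes were called, 3.13% higher and 0.554% lower. In these bulk samples, fewer cells of a type and less RNA per cell cannot be told apart. At an unadjusted p under 0.05, limma found 0 members higher and 5 lower there (Vegfa, Vegfc, Figf, Kdr and Flt4), beside 17.3% of all genes in either direction and 5.4% lower. Arrays with the same scan date in the file headers were taken as a slide, as no slide label was read. With the slide as a block 2 members (Vegfc and Figf) were called lower, beside 10.2% of all genes in either direction and 2.3% lower. The median change over the 10 genes was 0.62 in MISS KO, 0.90 in MISS WT, -0.31 in AF2 KO and 0.76 in AF2 WT, beside medians over all genes of 0.03, 0.16, 0.04 and -0.07.

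**Figure D1:**
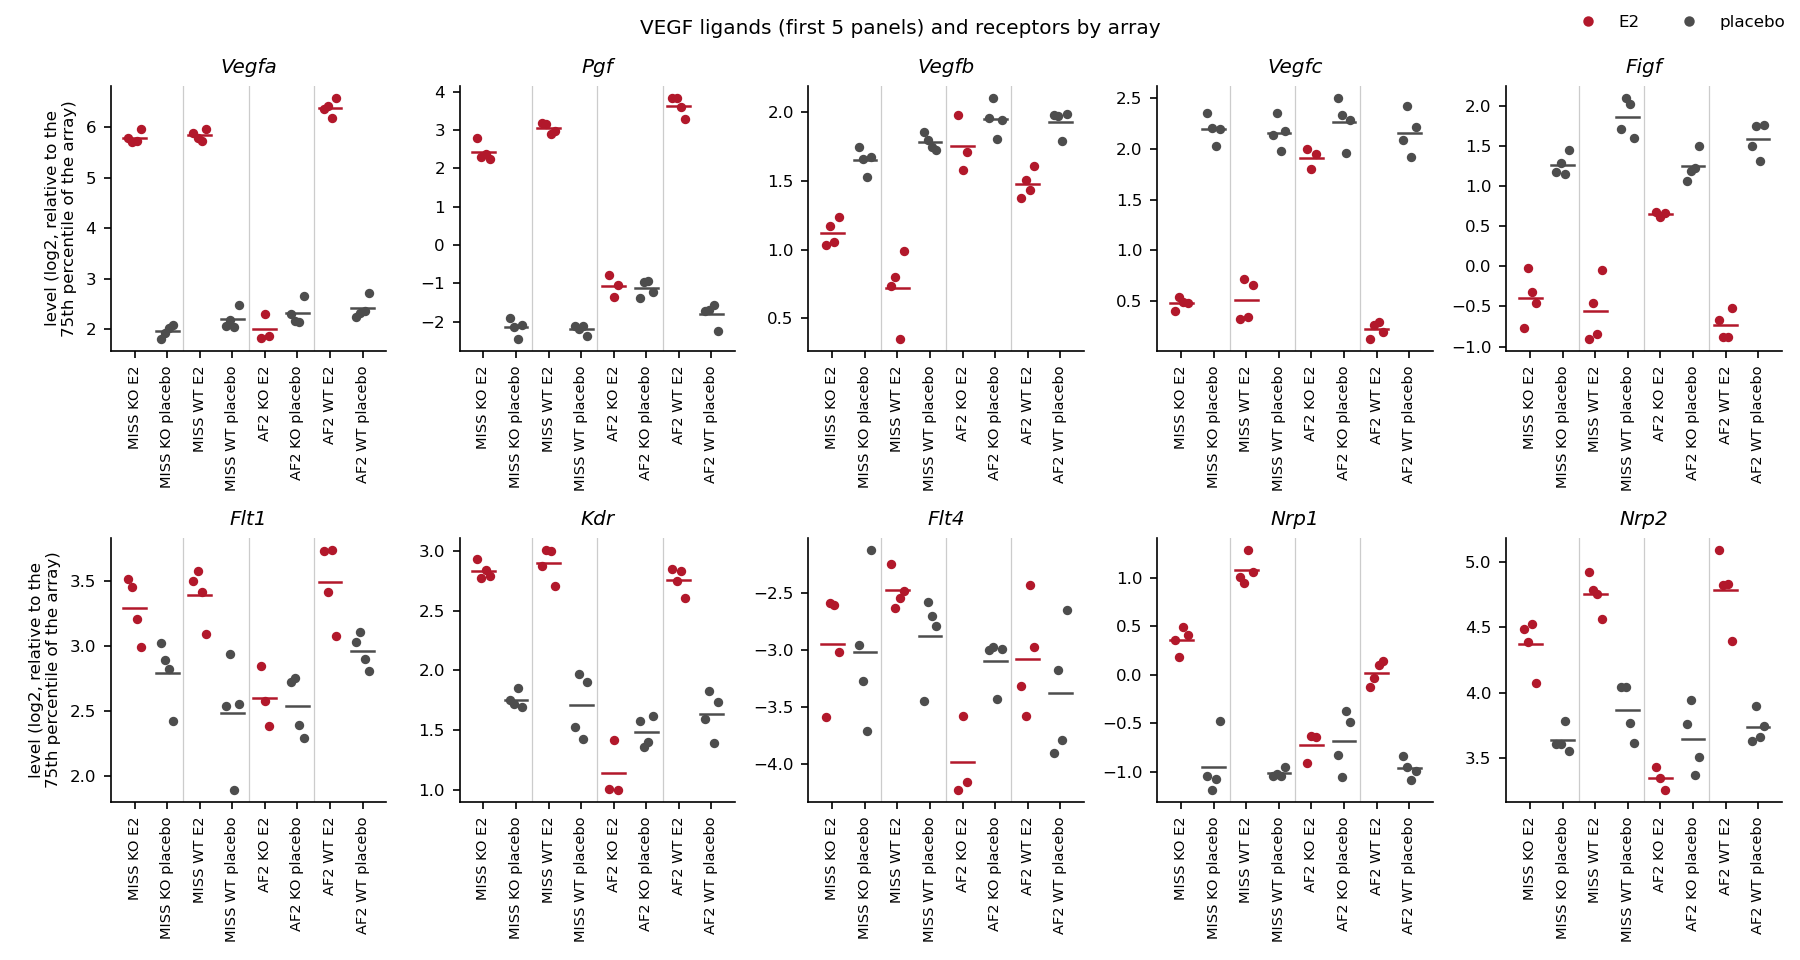
Level of each gene on every array (points; log2 relative to the 75th percentile of the array) in the 8 groups, with the group mean as a bar. E2 arrays (red) stand left of placebo arrays (grey) of the same genotype. Vegfa on the 4 AF2 WT E2 arrays lies between 6.18 and 6.58, and on the 3 AF2 KO E2 arrays between 1.84 and 2.30.

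Vegfa, the main angiogenic ligand, rose 14.2-fold in MISS KO, 12.5-fold in MISS WT and 15.7-fold in AF2 WT uteri with E2. MISS KO samples read 5.79, 5.71, 5.73 and 5.96 with E2, against 1.82, 1.93, 2.03 and 2.09 with placebo. MISS WT samples read 5.88, 5.80, 5.72 and 5.96 with E2, against 2.06, 2.20, 2.05 and 2.48 with placebo. In both genotypes every E2 sample stood far above every placebo sample. AF2 KO samples read 1.84, 2.30 and 1.87 with E2, against 2.30, 2.17, 2.14 and 2.65 with placebo, and AF2 WT samples read 6.36, 6.41, 6.18 and 6.58 with E2, against 2.26, 2.32, 2.36 and 2.73 with placebo. The AF2 KO groups overlapped and the AF2 WT groups did not. The change was 3.83 ± 0.13 in MISS KO (adjusted p = 2.03e-18), 3.64 ± 0.13 in MISS WT (adjusted p = 3.64e-18), -0.31 ± 0.14 in AF2 KO (adjusted p = 0.237) and 3.97 ± 0.13 in AF2 WT (adjusted p = 1.06e-18) in the limma fit. In AF2 KO the unadjusted 95% interval of this fit ran from -0.60 to -0.03, which holds no rise. Under the alternative settings the AF2 KO change of Vegfa ran from -0.465 to -0.203 and was never called. Within each slide, the responses ran from 3.70 to 3.97 in MISS KO, from 3.48 to 3.82 in MISS WT and from 3.82 to 4.11 in AF2 WT, with 4 slides each, and from -0.79 to 0.16 over the 3 slides of AF2 KO.

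Pgf, which binds FLT1 and not KDR, had the largest change of the family. It rose 23.8-fold in MISS KO, 38.4-fold in MISS WT and 43.6-fold in AF2 WT uteri. Its level was 2.79, 2.31, 2.38 and 2.25 in MISS KO with E2, against -1.90, -2.13, -2.45 and -2.10 with placebo. With E2, MISS WT samples read 3.20, 3.17, 2.91 and 2.97, against -2.12, -2.19, -2.12 and -2.38 with placebo. The E2 samples of both genotypes were the high ones, and every MISS KO E2 sample lay below every MISS WT E2 sample. The AF2 KO uteri read -0.80, -1.35 and -1.05 with E2, against -1.37, -0.96, -0.94 and -1.22 with placebo, and the AF2 WT uteri 3.84, 3.84, 3.60 and 3.29 with E2, against -1.73, -1.69, -1.58 and -2.24 with placebo. Again AF2 KO groups overlapped and AF2 WT groups were far apart. Changes were 4.57 ± 0.16 in MISS KO (adjusted p = 3.29e-18), 5.26 ± 0.16 in MISS WT (adjusted p = 1.95e-19), 0.06 ± 0.17 in AF2 KO (adjusted p = 0.917) and 5.45 ± 0.16 in AF2 WT (adjusted p = 1.46e-19) by limma. The Pgf probe (mm9 chr12:86508335-86510337, minus strand) maps across 2003 bases for 60 bases of probe, so that its target is interrupted in the genome.

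Vegfb, a further ligand of FLT1, fell in the responding genotypes by less than the other ligands that fell. In MISS KO its level was 1.04, 1.17, 1.05 and 1.23 with E2, against 1.75, 1.66, 1.53 and 1.67 with placebo. In MISS WT it was 0.74, 0.80, 0.35 and 0.99 with E2, against 1.86, 1.80, 1.75 and 1.73 with placebo. E2 samples were the low ones in both. In AF2 KO it was 1.98, 1.58 and 1.71 with E2, against 1.96, 2.10, 1.81 and 1.94 with placebo, which overlap, and in AF2 WT 1.38, 1.5, 1.43 and 1.61 with E2, against 1.98, 1.97, 1.79 and 1.98 with placebo, which do not. Limma gave -0.53 ± 0.10 in MISS KO (adjusted p = 9.28e-05), -1.06 ± 0.10 in MISS WT (adjusted p = 1.43e-09), -0.20 ± 0.11 in AF2 KO (adjusted p = 0.391) and -0.45 ± 0.10 in AF2 WT (adjusted p = 0.000576).

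Vegfc and Figf, the ligands of the lymphatic receptor FLT4, fell together in the responding genotypes. Vegfc fell 3.28-fold in MISS KO, 3.13-fold in MISS WT and 3.83-fold in AF2 WT uteri. Its level in MISS KO was 0.40, 0.54, 0.49 and 0.49 with E2, against 2.35, 2.20, 2.03 and 2.20 with placebo, and in MISS WT 0.33, 0.72, 0.35 and 0.66 with E2, against 2.14, 2.35, 1.98 and 2.18 with placebo. The low samples were those given E2, with no overlap. In AF2 KO it was 2.0, 1.80 and 1.95 with E2, against 2.50, 2.33, 1.96 and 2.28 with placebo, and in AF2 WT 0.13, 0.27, 0.30 and 0.20 with E2, against 2.09, 2.42, 1.92 and 2.22 with placebo. AF2 KO E2 samples stayed within or just under the placebo range, and AF2 WT E2 samples lay far below it. The changes were -1.72 ± 0.12 in MISS KO (adjusted p = 1.05e-12), -1.65 ± 0.12 in MISS WT (adjusted p = 1.95e-12), -0.35 ± 0.13 in AF2 KO (adjusted p = 0.123) and -1.94 ± 0.12 in AF2 WT (adjusted p = 1.27e-13) in the limma fit.

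Figf fell 3.16-fold in MISS KO, 5.36-fold in MISS WT and 5.0-fold in AF2 WT uteri. MISS KO uteri had levels of -0.77, -0.02, -0.32 and -0.46 with E2, against 1.17, 1.29, 1.15 and 1.45 with placebo. MISS WT uteri had -0.90, -0.46, -0.85 and -0.04 with E2, against 1.72, 2.10, 2.03 and 1.60 with placebo. E2 samples were low in both, and spread more than the placebo samples. AF2 KO uteri had 0.67, 0.62 and 0.67 with E2, against 1.06, 1.2, 1.23 and 1.5 with placebo, and AF2 WT uteri -0.67, -0.88, -0.88 and -0.52 with E2, against 1.51, 1.75, 1.31 and 1.77 with placebo. In AF2 KO, too, all 3 E2 samples lay below all placebo samples, but well above the AF2 WT E2 samples. Limma gave -1.66 ± 0.17 in MISS KO (adjusted p = 2.46e-09), -2.42 ± 0.17 in MISS WT (adjusted p = 1.49e-12), -0.59 ± 0.18 in AF2 KO (adjusted p = 0.0668) and -2.32 ± 0.17 in AF2 WT (adjusted p = 4.92e-12). The AF2 KO change of Figf passed with the slide as a block (-0.56, adjusted p = 0.0295) and with normexp background correction (-0.57, adjusted p = 0.0337). The probes lie at mm9 chr8:55271533-55271592 (Vegfc, plus strand) and chrX:160840395-160840454 (Figf, plus strand, read by 10 spots per array).

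Cell markers moved beside these ligands: 4 of 5 pericyte markers were called lower with E2 in MISS KO, 5 of 5 in MISS WT and 5 of 5 in AF2 WT, against 0 of 5 in AF2 KO. Of 8 stromal markers, 5 were called lower in MISS KO, 4 in MISS WT, 1 in AF2 KO and 7 in AF2 WT. Over all genes, 27.2% were called lower in MISS KO, 27.1% in MISS WT, 0.554% in AF2 KO and 30.1% in AF2 WT. The summed level of the stromal markers ran from 7.78 to 8.26 in MISS KO with E2 against 8.86 to 9.15 with placebo, and from 7.88 to 8.19 in AF2 WT with E2 against 8.74 to 8.97 with placebo. In MISS WT it ran from 8.03 to 8.19 with E2 against 8.91 to 9.32 with placebo, and in AF2 KO from 8.66 to 8.83 with E2 against 8.91 to 9.17 with placebo. The summed level of the pericyte markers ran from 3.40 to 3.71 in MISS KO with E2 against 4.30 to 4.46 with placebo, from 3.14 to 3.37 in MISS WT with E2 against 4.26 to 4.54 with placebo, from 4.33 to 4.4 in AF2 KO with E2 against 4.39 to 4.63 with placebo, and from 3.66 to 3.92 in AF2 WT with E2 against 4.39 to 4.66 with placebo. Of 6 macrophage markers, 3 were called lower in MISS KO, MISS WT and AF2 WT, and 0 in AF2 KO, while 1 was called higher in MISS KO and 1 in AF2 WT. Their summed level ran from 4.13 to 4.74 in MISS KO with E2 against 4.37 to 4.93 with placebo, from 4.44 to 4.79 in MISS WT with E2 against 4.74 to 5.82 with placebo, and from 4.7 to 4.93 in AF2 KO with E2 against 4.8 to 4.89 with placebo. In AF2 WT it ran from 3.83 to 4.28 with E2 against 4.48 to 4.85 with placebo, without overlap. The part of these markers in the fall of Vegfb, Vegfc and Figf was not tested.

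**Figure D2:**
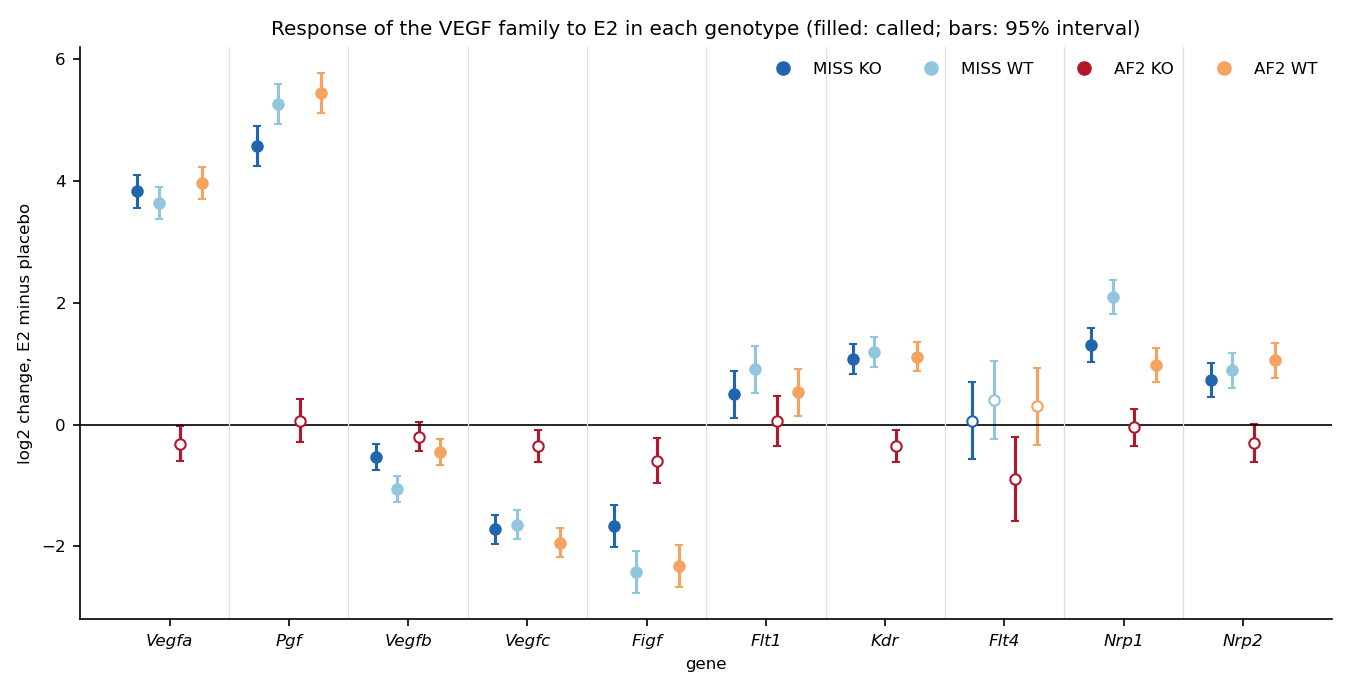
Change with E2 (E2 minus placebo, log2) of each gene in MISS KO, MISS WT, AF2 KO and AF2 WT uteri, with 95% confidence intervals of the limma fit. Filled points were called at an adjusted p under 0.05. Pgf reaches 5.45 in AF2 WT uteri, and no point of AF2 KO (dark red) is filled.

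Among the receptors, Kdr, the main signalling receptor of VEGF-A, rose close to 2-fold in the responding genotypes. MISS KO samples read 2.93, 2.77, 2.84 and 2.79 with E2, against 1.75, 1.72, 1.85 and 1.69 with placebo. MISS WT samples read 2.87, 3.01, 2.99 and 2.70 with E2, against 1.53, 1.97, 1.43 and 1.90 with placebo. E2 samples were higher throughout, without overlap. AF2 KO samples read 1.01, 1.41 and 1.0 with E2, against 1.57, 1.36, 1.40 and 1.62 with placebo, while AF2 WT samples read 2.84, 2.75, 2.83 and 2.60 with E2, against 1.59, 1.83, 1.39 and 1.74 with placebo. In AF2 KO 2 of the 3 E2 samples were below every placebo sample, and in AF2 WT all E2 samples were above. By limma the change was 1.08 ± 0.12 in MISS KO (adjusted p = 9.98e-09), 1.19 ± 0.12 in MISS WT (adjusted p = 1.60e-09), -0.35 ± 0.13 in AF2 KO (adjusted p = 0.139) and 1.12 ± 0.12 in AF2 WT (adjusted p = 5.98e-09).

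Flt1 rose by less, and its call in 2 genotypes depended on the scaling and on single arrays. Levels were 3.51, 3.45, 3.21 and 3.00 in MISS KO with E2, against 3.02, 2.89, 2.82 and 2.43 with placebo, and 3.5, 3.57, 3.41 and 3.09 in MISS WT with E2, against 2.54, 2.94, 1.89 and 2.55 with placebo. The MISS KO groups overlapped by 1 sample, and MISS WT groups did not. In AF2 KO they were 2.84, 2.58 and 2.39 with E2, against 2.73, 2.76, 2.39 and 2.29 with placebo, and in AF2 WT 3.73, 3.42, 3.74 and 3.07 with E2, against 3.03, 3.10, 2.90 and 2.80 with placebo. The AF2 KO groups overlapped, and 1 AF2 WT E2 sample lay within the placebo range. The change was 0.50 ± 0.19 in MISS KO (adjusted p = 0.0239), 0.91 ± 0.19 in MISS WT (adjusted p = 0.000135), 0.06 ± 0.20 in AF2 KO (adjusted p = 0.93) and 0.53 ± 0.19 in AF2 WT (adjusted p = 0.0173) in the limma fit. With quantile normalization it was 0.19 in MISS KO (adjusted p = 0.312) and 0.17 in AF2 WT (adjusted p = 0.352). In the values that the authors deposited as a matrix it was 0.17 in MISS KO (adjusted p = 0.39) and 0.14 in AF2 WT (adjusted p = 0.465). With 1 array left out, 3 of 31 fits did not call Flt1 in MISS KO, and 2 of 31 did not call it in AF2 WT.

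Flt4, the lymphatic receptor, was called with E2 in no genotype by limma. It ran from -3.59 to -2.59 in MISS KO with E2 against -3.71 to -2.12 with placebo, and from -2.63 to -2.25 in MISS WT with E2 against -3.45 to -2.58 with placebo. In AF2 KO its level was -4.23, -3.58 and -4.15 with E2, against -3.00, -2.97, -3.43 and -2.99 with placebo, and in AF2 WT -3.32, -3.58, -2.43 and -2.97 with E2, against -3.91, -3.17, -3.79 and -2.64 with placebo. All 3 AF2 KO E2 samples were below the AF2 KO placebo samples, and the other groups overlapped. The changes were 0.06 ± 0.31 in MISS KO (adjusted p = 0.883), 0.40 ± 0.31 in MISS WT (adjusted p = 0.26), -0.89 ± 0.33 in AF2 KO (adjusted p = 0.148) and 0.30 ± 0.31 in AF2 WT (adjusted p = 0.425).

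The neuropilins rose in each responding genotype in the limma fit on the scanner signals and were not called in AF2 KO uteri. Nrp1 read 0.36, 0.19, 0.50 and 0.41 in MISS KO with E2, against -1.05, -1.19, -1.08 and -0.48 with placebo. It read 1.01, 0.95, 1.29 and 1.06 in MISS WT with E2, against -1.04, -1.03, -1.04 and -0.95 with placebo. All MISS WT E2 samples stood above all MISS KO E2 samples, while the placebo samples of these genotypes overlapped. In AF2 KO it read -0.91, -0.64 and -0.64 with E2, against -0.82, -1.06, -0.38 and -0.49 with placebo, and in AF2 WT -0.13, -0.03, 0.10 and 0.14 with E2, against -0.84, -0.95, -1.09 and -1.0 with placebo. The AF2 KO groups overlapped, and AF2 WT E2 samples were all above placebo. The change was 1.31 ± 0.14 in MISS KO (adjusted p = 3.80e-09), 2.10 ± 0.14 in MISS WT (adjusted p = 3.84e-13), -0.04 ± 0.15 in AF2 KO (adjusted p = 0.934) and 0.99 ± 0.14 in AF2 WT (adjusted p = 5.65e-07) by limma.

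Nrp2, the coreceptor of VEGF-C as well as VEGF-A, rose 1.66-fold in MISS KO, 1.85-fold in MISS WT and 2.08-fold in AF2 WT uteri. Its level was 4.49, 4.39, 4.53 and 4.08 in MISS KO with E2, against 3.61, 3.61, 3.79 and 3.55 with placebo, and 4.92, 4.79, 4.75 and 4.56 in MISS WT with E2, against 4.04, 4.04, 3.77 and 3.61 with placebo. E2 samples were the high ones in both. It was 3.43, 3.34 and 3.25 in AF2 KO with E2, against 3.76, 3.95, 3.37 and 3.5 with placebo, and 5.10, 4.83, 4.83 and 4.4 in AF2 WT with E2, against 3.63, 3.90, 3.66 and 3.74 with placebo. The AF2 KO groups overlapped, and the AF2 WT groups did not. Limma gave 0.73 ± 0.14 in MISS KO (adjusted p = 4.81e-05), 0.89 ± 0.14 in MISS WT (adjusted p = 3.04e-06), -0.30 ± 0.15 in AF2 KO (adjusted p = 0.294) and 1.05 ± 0.14 in AF2 WT (adjusted p = 2.37e-07). In the authors' matrix it was 0.26 in MISS KO (adjusted p = 0.0505), which was not called, 0.32 in MISS WT (adjusted p = 0.0146) and 0.60 in AF2 WT (adjusted p = 3.55e-05).

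Counted by overlap, E2 and placebo samples were fully apart for 8 of the 10 genes in MISS KO (53.1% of all genes tested), 9 in MISS WT (54.8%) and 8 in AF2 WT (49.6%). In AF2 KO they were apart for 2 genes (16.6% of all genes), Figf and Flt4, both lower. Within single slides, each holding 1 array of nearly every group, the sign of the response was the same on all 4 slides for every member other than Flt4 in MISS KO, MISS WT and AF2 WT.

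Markers of the vessel wall were read beside the receptors. Over all genes, 57.3% were called in either direction in MISS KO, 62.2% in MISS WT, 3.68% in AF2 KO and 57.6% in AF2 WT. Of 12 endothelial markers, 3 were called higher and 3 lower with E2 in MISS KO, 3 higher and 3 lower in MISS WT, 0 higher and 1 lower in AF2 KO, and 3 higher and 2 lower in AF2 WT. Their summed level ran from 7.21 to 7.83 in MISS KO with E2 against 6.86 to 7.25 with placebo, from 7.06 to 7.44 in MISS WT with E2 against 6.63 to 7.26 with placebo, from 6.62 to 6.98 in AF2 KO with E2 against 6.77 to 7.01 with placebo, and from 7.02 to 7.65 in AF2 WT with E2 against 7.05 to 7.22 with placebo. These ranges overlap in every genotype, with medians of 7.46 against 7.20 in MISS KO, 7.25 against 6.98 in MISS WT, 6.85 against 6.88 in AF2 KO and 7.41 against 7.15 in AF2 WT. Of 5 lymphatic markers, 1 was called higher and 1 lower in MISS KO and in MISS WT, 0 in AF2 KO, and 1 higher and 3 lower in AF2 WT. Of 6 smooth muscle markers, 4 were called higher in MISS KO, 5 in MISS WT, 0 in AF2 KO and 0 in AF2 WT. The part of cell numbers in the receptor changes was not tested.

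E2 acted differently in AF2 KO than in AF2 WT uteri on 8 of the 10 genes: the difference of the responses was called lower for 6 and higher for 2, where 51.9% of all genes were called, 22.9% lower and 29% higher. It was -4.28 ± 0.19 for Vegfa (adjusted p = 2.84e-15) and -5.39 ± 0.23 for Pgf (adjusted p = 2.29e-15), the ligands that rose. Vegfc at 1.58 ± 0.17 (adjusted p = 2.12e-08) and Figf at 1.73 ± 0.25 (adjusted p = 1.81e-06), the ligands that fell in AF2 WT, had the positive differences. Among receptors it was -1.47 ± 0.17 for Kdr (adjusted p = 9.93e-08), -1.36 ± 0.20 for Nrp2 (adjusted p = 3.39e-06), -1.03 ± 0.20 for Nrp1 (adjusted p = 0.00011) and -1.19 ± 0.45 for Flt4 (adjusted p = 0.0299). The Flt4 difference did not hold throughout: with normexp background correction it was -0.45 (adjusted p = 0.137), and 5 of 31 fits with 1 array left out did not call it. Flt1 (-0.47 ± 0.28, adjusted p = 0.158) and Vegfb (0.25 ± 0.15, adjusted p = 0.173) were not called, and their 95% intervals ran from -1.04 to 0.10 and from -0.06 to 0.57. Vegfb passed in 3 of 10 settings other than leaving out an array, among them quantile normalization (0.45, adjusted p = 0.0122) and the authors' matrix (0.45, adjusted p = 0.00927). Flt1 passed in 1 of these 10 settings (adjusted p = 0.00646 by limma).

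Between MISS KO and MISS WT, the difference of the responses was called for 1 gene, Nrp1, lower in MISS KO by 0.79 ± 0.19 on the log2 scale (adjusted p = 0.045), where 0.898% of all genes were called, 0.654% lower and 0.244% higher. Within slides the Nrp1 difference ran from -1.13 to -0.60 and was negative on 4 of 4 slides. The call sat at the threshold: the adjusted p ran up to 0.121 when 1 array was left out, and 23 of these 31 fits did not call it. In the authors' matrix it was -0.63 (adjusted p = 0.109). With the slide as a block, 4 members were called: Nrp1 (adjusted p = 0.00762), Vegfb at 0.53 (adjusted p = 0.0119), Figf at 0.76 (adjusted p = 0.0414) and Pgf at -0.69 (adjusted p = 0.046), where the block called 4.14% of all genes. All 4 signs stand for a smaller response in MISS KO than in MISS WT. For Figf the genotypes differed more with placebo (means of 1.27 in MISS KO and 1.86 in MISS WT) than with E2. Its E2 means were -0.39 in MISS KO and -0.56 in MISS WT, with overlapping samples. Vegfa (0.19 ± 0.18, 95% interval -0.19 to 0.56), Kdr (-0.11 ± 0.17, interval -0.45 to 0.24), Vegfc (-0.07 ± 0.16, interval -0.40 to 0.27) and Nrp2 (-0.16 ± 0.19, interval -0.56 to 0.24) were not called, and a difference of 2-fold lay outside each of these intervals.

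The wild types of the 2 lines were also set against each other. The response of MISS WT minus that of AF2 WT was called for 2 genes, where 9.5% of all genes were called, 6.39% higher and 3.11% lower. It was 1.11 ± 0.19 for Nrp1 (adjusted p = 0.000531), positive on 4 of 4 slides, and -0.61 ± 0.15 for Vegfb (adjusted p = 0.0095), negative on 4 of 4 slides. The E2 response of Nrp1 was thus larger, and the fall of Vegfb deeper, in MISS WT than in AF2 WT uteri. Line and background strain cannot be told apart here.

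With placebo, Pgf was the only member called between genotypes in the limma fit. It was 0.68 ± 0.16 higher in AF2 KO than in AF2 WT uteri (1.61-fold, adjusted p = 0.00594), where 9.04% of all genes were called, and the 4 AF2 KO samples lay above the 4 AF2 WT samples. Of 8 epithelial markers, 4 were called higher and 1 lower in the same comparison. Their summed level ran from 7.49 to 7.97 in AF2 KO against 7.05 to 7.44 in AF2 WT with placebo, without overlap. The part of the epithelium in the Pgf difference was not tested. Flt1, at -0.42 ± 0.19 (adjusted p = 0.18), passed with the slide as a block (adjusted p = 0.0301), which called 20.1% of all genes there. For MISS KO against MISS WT 0 of 10 were called (0.85% of all genes). At an unadjusted p under 0.05 there was 1 in limma, beside 11.1% of all genes in either direction and 5.25% lower: Figf, lower by 0.59 ± 0.17 in MISS KO (adjusted p = 0.0972). It passed with the slide as a block (adjusted p = 0.0307), which called 3.1% of all genes. For MISS WT against AF2 WT 0 were called (11.7% of all genes), with 2 at an unadjusted p under 0.05, Pgf at -0.39 ± 0.16 and Flt1 at -0.48 ± 0.19, beside 23.7% of all genes in either direction and 15.8% lower. Both passed with the slide as a block (adjusted p = 0.044 and 0.013), which called 20.9% of all genes.

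The order of the 8 group means differed between members. For Vegfa it was AF2 WT E2 at 6.38 ± 0.16 (SD), MISS WT E2 at 5.84 ± 0.10 and MISS KO E2 at 5.80 ± 0.11 (n = 4 each), followed by AF2 WT placebo, AF2 KO placebo, MISS WT placebo, AF2 KO E2 and MISS KO placebo at 1.97 ± 0.12 to 2.41 ± 0.21. AF2 WT E2 stood apart from the next group, MISS WT E2 and MISS KO E2 overlapped, and the last 5 groups each overlapped with their neighbour. Pgf had the order AF2 WT E2, MISS WT E2, MISS KO E2, AF2 KO E2, AF2 KO placebo, AF2 WT placebo, MISS KO placebo and MISS WT placebo, and its first 3 groups each stood apart from the next. Nrp1 instead had MISS WT E2 first, at 1.08 ± 0.15, then MISS KO E2 at 0.36 ± 0.13 and AF2 WT E2 at 0.02 ± 0.12, each apart from the next. Kdr had MISS WT E2, MISS KO E2 and AF2 WT E2 in overlapping ranges, and AF2 KO E2 lowest of all 8 groups at 1.14 ± 0.24.

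Several genes had more than 1 probe, and the probes of a gene were not all called alike. Under the settings used here, no difference between probes of a gene passed an adjusted p under 0.05 over 20 exact permutation comparisons. Of all 40332 probes tested, 55.8% were called with E2 in MISS KO, 60.6% in MISS WT, 3.01% in AF2 KO and 56.6% in AF2 WT, and 50.2% for the difference between AF2 KO and AF2 WT. For Flt1, a probe at chr5:148446872-148446931 (minus strand), 73.1 kb from the probe used for the gene (chr5:148373791-148373850), rose by 1.29 ± 0.14 in MISS KO (adjusted p = 1.72e-08), 1.33 ± 0.14 in MISS WT (adjusted p = 8.98e-09) and 1.19 ± 0.14 in AF2 WT (adjusted p = 7.39e-08).

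That Flt1 probe read 2.35, 2.27, 2.12 and 2.32 in MISS KO with E2, against 1.13, 0.98, 0.79 and 1.0 with placebo. In AF2 KO it read 0.86, 0.75 and 0.61 with E2, against 1.23, 1.03, 0.89 and 1.07 with placebo, and in AF2 WT 2.70, 2.54, 2.39 and 2.29 with E2, against 1.47, 1.39, 0.96 and 1.33 with placebo. Its E2 and placebo samples did not overlap in these 3 genotypes, and in AF2 KO the E2 samples were the lower ones. Of all genes tested, 53.1% did not overlap in MISS KO, 16.6% in AF2 KO and 49.6% in AF2 WT. Its difference between AF2 KO and AF2 WT was -1.51 ± 0.21 (adjusted p = 1.61e-06 over 40332 probes), while the probe used for the gene was not called. Its change exceeded that of the probe used for the gene by 0.79 in MISS KO, 0.42 in MISS WT and 0.66 in AF2 WT, each with an exact two-sided permutation p of 0.0286, the smallest that 4 against 4 arrays allow, and an adjusted p of 0.0571 over 20 such comparisons. FLT1 is known to be made as a membrane receptor and as a secreted form, and the files do not say which of these the probe reads. Another Flt1 probe (chr5:148465976-148466035), 92.2 kb away, changed by 0.43 ± 0.17 in MISS KO (adjusted p = 0.0327), 0.49 ± 0.17 in MISS WT (adjusted p = 0.0137) and 0.31 ± 0.17 in AF2 WT (adjusted p = 0.125). It was much dimmer, at -5.01 to -3.62 over all arrays, against 1.89 to 3.74 for the probe used for the gene.

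The other Kdr probe (chr5:76330395-76330454, minus strand), 1.09 kb from the probe used for the gene (chr5:76329309-76329368), was called in no genotype by limma, with changes of 0.08 ± 0.17 in MISS KO (adjusted p = 0.703), 0.09 ± 0.17 in MISS WT (adjusted p = 0.661), -0.05 ± 0.18 in AF2 KO (adjusted p = 0.938) and 0.29 ± 0.17 in AF2 WT (adjusted p = 0.145). Its level followed the slide, from 1.29 to 1.68 on slide 1 and from 1.65 to 2.09 on slide 4 over all groups. Slide held 68.2% of its variance, against 0.17% for the probe used for the gene. The rise of Kdr was thus called only at the probe used for the gene, which each array carries at 10 spots, and not at the other. The change of the other probe minus that of the probe used was -0.996 in MISS KO and -1.10 in MISS WT (exact two-sided permutation p = 0.0286 each, adjusted 0.0571). In AF2 WT it was -0.83 (exact p = 0.0571, adjusted 0.0879). For Nrp2 the other probe (chr1:62843298-62843357, plus strand), 21.8 kb from the probe used for the gene, changed by 0.25 ± 0.15 in MISS KO (adjusted p = 0.165), 0.38 ± 0.15 in MISS WT (adjusted p = 0.0325) and 0.15 ± 0.15 in AF2 WT (adjusted p = 0.413), less than the probe used for the gene by 0.48, 0.51 and 0.90 (exact two-sided permutation p = 0.0286 each, adjusted 0.0571).

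**Figure D3:**
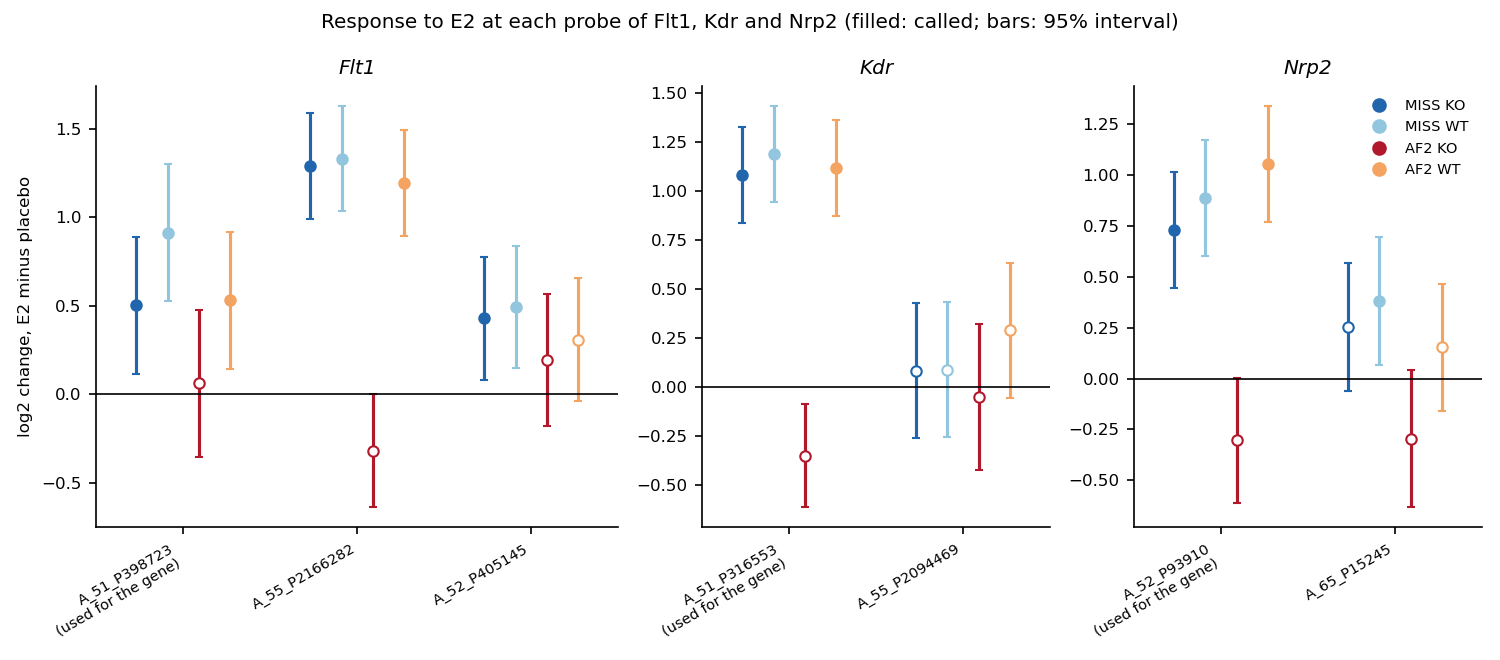
Change with E2 (E2 minus placebo, log2) at every probe of Flt1, Kdr and Nrp2 in MISS KO, MISS WT, AF2 KO and AF2 WT uteri, with 95% confidence intervals; filled points were called over 40332 probes. The first probe of each panel is the one used for the gene. The second Flt1 probe reaches 1.29 in MISS KO, 1.33 in MISS WT and 1.19 in AF2 WT, while the other Kdr probe stays between -0.05 and 0.29.

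Genes that regulate VEGF production were read from a list of 12, chiefly the hypoxia-inducible factors and the enzymes that mark them for destruction. With E2, 7 were called higher and 2 lower in MISS KO, 6 higher and 2 lower in MISS WT, 0 in AF2 KO and 6 higher and 3 lower in AF2 WT. Of all genes tested, 57.3% were called in MISS KO, 62.2% in MISS WT, 3.68% in AF2 KO and 57.6% in AF2 WT. Hif1a, the oxygen-controlled subunit of HIF-1, rose by 1.70 ± 0.15 in MISS KO, 1.66 ± 0.15 in MISS WT and 1.2 ± 0.15 in AF2 WT (adjusted p = 1.35e-07). Epas1, which encodes HIF-2α and is strong in endothelium, rose by 0.85 ± 0.10 in MISS KO, 1.61 ± 0.10 in MISS WT and 1.19 ± 0.10 in AF2 WT (adjusted p = 6.00e-11), and its response was smaller in MISS KO than in MISS WT by limma (-0.76 ± 0.14, adjusted p = 0.00474). Egln3, a prolyl hydroxylase that is itself a HIF target, rose by 1.1 ± 0.20, 1.82 ± 0.20 and 1.15 ± 0.20 in MISS KO, MISS WT and AF2 WT, and its difference between AF2 KO and AF2 WT was -1.38 ± 0.29 (adjusted p = 0.000295). Hif3a and Arnt2 fell by 1.48 ± 0.48 and 1.42 ± 0.22 in AF2 WT on the log2 scale. In AF2 KO, Hif1a changed by 0.16 ± 0.16, Epas1 by -0.04 ± 0.11 and Egln3 by -0.22 ± 0.21, and limma called none of these. The median of the list was 0.34 in MISS KO, 0.25 in MISS WT, 0.02 in AF2 KO and 0.22 in AF2 WT, beside the medians over all genes given above.

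Of 39 genes that relay the signal of VEGF receptors, 20 were called higher and 8 lower with E2 in MISS KO, 22 higher and 11 lower in MISS WT, 0 in AF2 KO and 22 higher and 6 lower in AF2 WT. The share called over all genes was 57.3% in MISS KO, 62.2% in MISS WT, 3.68% in AF2 KO and 57.6% in AF2 WT. The largest changes in AF2 WT were those of Sphk1 (2.41 ± 0.26, adjusted p = 8.37e-09), the kinase that makes sphingosine 1-phosphate, and Nos3 (2.35 ± 0.14, adjusted p = 2.20e-13), the endothelial nitric oxide synthase. Both also had the largest differences between AF2 KO and AF2 WT in the list, at -2.39 ± 0.38 (adjusted p = 8.71e-06) and -2.55 ± 0.21 (adjusted p = 2.67e-10). In AF2 KO they changed by 0.02 ± 0.28 and -0.20 ± 0.16, and limma called neither.

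Genes known to be induced by VEGF in endothelial cells, 17 of 18 of which passed the filter, had 15 called higher and 2 lower in MISS KO, 14 higher and 1 lower in MISS WT, 0 in AF2 KO and 11 higher and 2 lower in AF2 WT. Among all genes, 57.3% were called in MISS KO, 62.2% in MISS WT, 3.68% in AF2 KO and 57.6% in AF2 WT. The genes of the list called higher include Sele, taken up below. The medians that follow are those of the list. Their median change was 1.21 in MISS KO, 1.5 in MISS WT, -0.11 in AF2 KO and 1.22 in AF2 WT. Sele, the endothelial adhesion molecule E-selectin, was not well above background on any placebo array. It passed the filter only through E2 arrays, so its calls with E2 are no independent test and no p-value is given. With E2 it read at least 11.2-fold higher in MISS KO, 13.9-fold in MISS WT and 9.04-fold in AF2 WT. Each bound was taken against the dimmest signal well above background on the placebo arrays. In AF2 KO, Sele was not well above background on any array of either treatment. Nr4a1, an immediate early nuclear receptor that many stimuli induce, rose by 3.44 ± 0.47 in AF2 WT (adjusted p = 4.50e-07). Esm1, the endothelial tip cell gene endocan, was called lower with E2 in AF2 WT (adjusted p = 2.46e-06), where 1 of 4 E2 arrays was well above background, so that no size is given for its fall.

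Class 3 semaphorins and their plexin receptors, which share the neuropilins with VEGF, had 4 of 13 called higher and 4 lower in MISS KO, 6 higher and 2 lower in MISS WT, 0 higher and 1 lower in AF2 KO and 5 higher and 3 lower in AF2 WT. Sema3f, a ligand of NRP2, rose by 2.42 ± 0.13 in AF2 WT (adjusted p = 1.83e-14), and Sema3a, a ligand of NRP1, fell by 1.03 ± 0.11 (adjusted p = 1.22e-08) on the log2 scale. Of 16 genes that process the ligands or modulate the receptors, 6 were called higher and 4 lower in MISS KO, 5 higher and 5 lower in MISS WT, 0 higher and 1 lower in AF2 KO and 6 higher and 3 lower in AF2 WT. For all genes, the share called was 57.3% in MISS KO, 62.2% in MISS WT, 3.68% in AF2 KO and 57.6% in AF2 WT. In the 3 responding genotypes both lists lay close to that share, so their counts do not set them apart from genes at large. Ccbe1, a secreted cofactor for the cleavage of VEGF-C, fell by 1.98 ± 0.17 in AF2 WT (adjusted p = 1.46e-10), and Furin, a protease that cleaves the VEGF-C precursor, rose by 0.94 ± 0.13 (adjusted p = 9.83e-07). Ccbe1 fell in MISS KO (-2.04 ± 0.17) and MISS WT (-2.28 ± 0.17) as well. Pcsk5, another protease of the furin family, differed between AF2 KO and AF2 WT by -1.15 ± 0.25 (adjusted p = 0.000386).

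**Figure D4:**
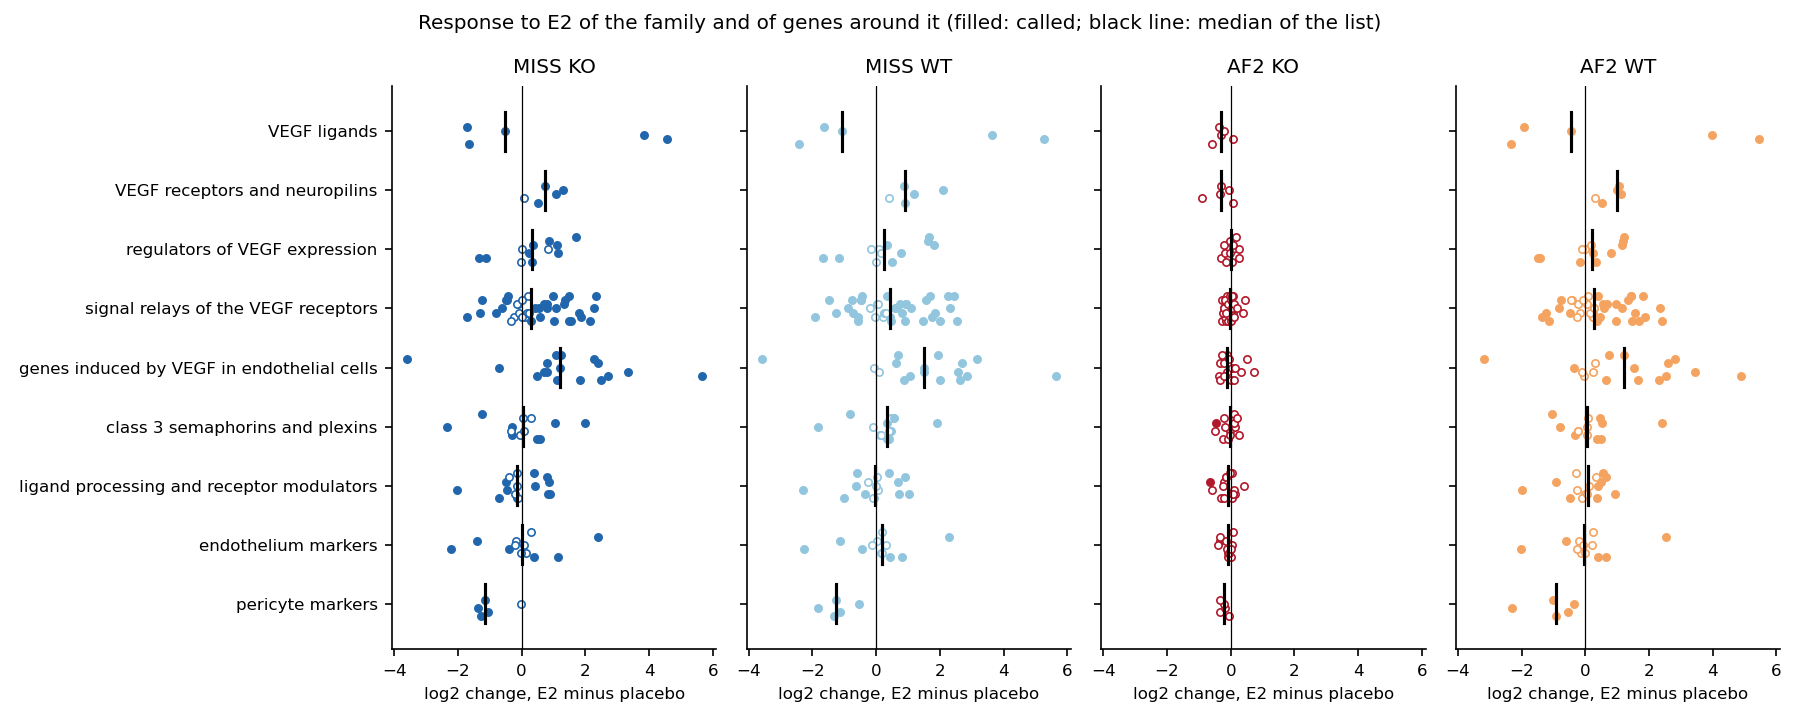
Change with E2 (E2 minus placebo, log2) of the single genes of 9 lists in MISS KO, MISS WT, AF2 KO and AF2 WT uteri. Each point is a gene, filled where called, and a black line marks the median of the list. Genes induced by VEGF have medians of 1.21, 1.5 and 1.22 in MISS KO, MISS WT and AF2 WT, against -0.11 in AF2 KO.

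Over the 31 arrays, the genes most like Vegfa in profile were Foxs1, Krt81 and Urb1, each with a Pearson r of 0.993, and 3384 of 27055 other genes had r over 0.9. For Kdr they were Mall (0.979), Selp (0.977), which encodes P-selectin of endothelium and platelets, and Trmt6 (0.973), and for Vegfc they were Layn (0.984), Zkscan14 (0.983) and Zfp551 (0.983). All these profiles share the arrays, their scaling and the E2 treatment. Flt1 was most like Rhbdf1 (0.934), Tal1 (0.931) and Rasip1 (0.929), with 63 genes over 0.9, and Flt4 most like Foxc2 (0.837), Fcrls (0.804) and Pf4 (0.799), with 0 over 0.9. The nearest genes of Nrp2 were Carhsp1 (0.964), Hsd17b11 (0.958) and Slco2a1 (0.957), those of Figf were Lyplal1 (0.968), Dact1 (0.964) and Antxr2 (0.964), those of Vegfb were Zfp467 (0.961), Psd (0.938) and Slc44a3 (0.936), and those of Pgf were Larp1 (0.989), Exosc6 (0.988) and Caskin2 (0.988). For Nrp1 they were Col27a1 (0.962) and a pair of probes without a gene symbol (0.958 and 0.957).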

How the data were processed

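Total RNA of 31 uterus samples was read on 1-colour Agilent arrays, with spots quantified by Feature Extraction 10.10.1.1 as the file headers state. The deposited scanner files give the authors' processed signal per spot as an intensity on a linear scale, already background-corrected, and 0 or 1 marks for background, saturation and outlier spots, per the file headers. The authors' deposited matrix (43753 probes) holds log2 values whose exact normalization is not given in the sources used here; each column matched its own array's log2 signal (r of at least 0.999, column medians of 7.56), so the scale is known and the centring is not. The submitters' processing notes name limma.

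The log2 of the processed signal was averaged over the spots of a probe (5 member spots marked as outliers were left out). The 75th percentile over the probes of each array was then subtracted. Probes that no group had well above background throughout were dropped, which left 40332 probes and 27056 genes, and among several probes of a gene the one highest on average stood for it. Names were updated through accessions (27235 probes, 2838 names changed). limma 3.58.1 in R 4.3.3 fitted 8 group means over 31 arrays, with 10 contrasts and Benjamini-Hochberg adjustment over all genes, or over all probes for single probes. The scripts were tested on simulated data. There, E2 against placebo in AF2 WT called 30% of genes changed by 0.5 log2, 56% at 1 and 96% at 2. That simulation changed far fewer genes than E2 did here, so these shares do not carry over to the data.

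The members and lists were chosen with earlier results of these data known. All members were named. Of each pathway list, the genes with the largest called change in AF2 WT and the largest difference between KO and WT were named, with Hif1a, Epas1 and Egln3, and for each member the 3 genes with the highest Pearson r. Alternatives covered background correction, scaling, the filter on dim probes, the choice of probe, gene names, the slide as a block, the authors' matrix and each array left out. Differences between probes of a gene were tested by exact permutation, an analysis added after seeing the data. Slides were inferred from the scan date in the file headers. Of 4 such slides, 3 held 1 array of each group and 1 lacked AF2 KO E2. Of the 15 probes of the members, 1 is not reported here on its own.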

Additional observations from a re-analysis of the deposited data

Results flagged for a closer look

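The E2 response differed between AF2 KO and AF2 WT uteri by a limma interaction test for Vegfa (-4.28), Pgf (-5.39), Kdr (-1.47), Nrp2 (-1.36), Flt4 (-1.19), Nrp1 (-1.03), Figf (1.73) and Vegfc (1.58), all as log2 differences of AF2 KO minus AF2 WT. The same test found a difference for Nrp1 between MISS KO and MISS WT (-0.79). Between MISS WT and AF2 WT it found one for Nrp1 (1.11) and for Vegfb (-0.61). With 1 array left out, 23 of 31 fits did not call Nrp1 between MISS KO and MISS WT. Likewise, 5 of 31 did not call Flt4 between AF2 KO and AF2 WT.

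Of 105 groups of 4 arrays examined over the 15 probes, 5 held an array far from the others, and chance flags about 1 in 20 groups. Vegfb in AF2 WT placebo replicate 3 read 1.79, below the nearest array at 1.97. Flt4 in AF2 KO placebo replicate 3 read -3.43, with the nearest at -3.00. Nrp1 in MISS WT placebo replicate 4 read -0.95, with the nearest at -1.03. At the other Nrp2 probe, MISS KO placebo replicate 3 read 1.90, with the nearest at 1.63, and AF2 KO placebo replicate 3 read 1.43, with the nearest at 1.99.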

How the results depend on the processing

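Of 4100 values of members under alternative settings, 4030 kept their direction and their side of the threshold, 46 fell short of it, 24 newly passed it and 0 turned round. Genes called with E2 in AF2 KO (996) numbered 1672 with normexp, 636 with quantile normalization, 582 with a strict filter on dim probes and 2770 with the slide as a block, and members there (0) numbered 1 with normexp and 2 with the block. For MISS KO minus MISS WT, genes (243) numbered 1119 with the block, and members (1) numbered 4 with the block and 0 with the percentile over probes above background on all arrays, with no filter, and with the percentile over all spots that are not controls (chosen after seeing the data). With the block, genes numbered 5821 for MISS WT minus AF2 WT (2571), 5446 for AF2 KO against AF2 WT with placebo (2447), 839 for MISS KO against MISS WT with placebo (230) and 5650 for MISS WT against AF2 WT with placebo (3153), and members in the last 3 numbered 2, 1 and 2, against 1, 0 and 0. Normexp gave 3943 genes for the AF2 placebo comparison and 5413 for that of the wild types. The authors' matrix gave 375 genes and 1 member for the MISS placebo comparison, and 1 member for that of the wild types. Leaving out each array in turn gave 14785 to 15752 genes and 8 to 9 members with E2 in AF2 WT, 239 to 1107 and 0 to 1 in AF2 KO, 15768 to 16998 and 9 to 9 in MISS WT, and 14827 to 15650 and 8 to 9 in MISS KO. For the differences it gave 12917 to 14263 genes and 7 to 8 members (AF2), 138 to 354 and 0 to 2 (MISS), and 1875 to 2849 and 2 to 2 (wild types). With placebo it gave 1579 to 2782 and 1 to 1 (AF2), 59 to 672 and 0 to 1 (MISS), and 1932 to 3607 and 0 to 1 (wild types). Over all probes of the members it gave 48 to 54 calls against 50. The 239 genes in AF2 KO came without AF2 KO E2 replicate 1, the 59 without MISS WT placebo replicate 3 and the 672 without MISS WT placebo replicate 4. With the percentile over probes above background on all arrays, 5801 genes were called higher and 10791 lower in AF2 WT, against 7466 and 8131. The cause of these shifts was not tested. Replicate numbers only follow the order of deposition and pair no samples, so the slide was the only block fitted.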
